A study of Homo sapiens with 16 samples.

Results

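APCDD1 and 9 other genes of the WNT pathway were followed on 16 arrays of 16HBE cells, 10 of the 42665 gene names on the array. APCDD1 was picked for its measured values, a low level in 16HBE-ex14 cells, and the other 9 were put beside it as WNT ligands (WNT5A, WNT7B), secreted inhibitors (DKK1, SFRP1), intracellular feedback genes (AXIN2, NKD1), transcription factors (LEF1, TCF7) and a receptor (LGR5). Every probe named for one of them was taken, 16 in all. Of these, 11 probes of 8 genes exceeded background clearly on 4 or more of the 16 arrays and were tested, whereas LEF1 and LGR5 had no tested probe.

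16HBE cells are bronchial epithelial cells of human origin, immortalised with SV40 large T antigen and not tumorigenic, and 16HBE-ex14 is clone F of these cells, edited with CRISPR/Cas9 so that exon 14 of the receptor gene MET is skipped. The study compared the genes that the wild-type and the exon 14 skipped receptor regulate in response to hepatocyte growth factor (HGF), the ligand of MET. Each genotype was measured unstimulated (16HBE-WT, 16HBE-ex14) and stimulated (16HBE-WT+HGF, 16HBE-ex14+HGF), with 4 arrays for each of the 4 conditions; all cells were deprived of serum for 2 h, and HGF was given at 20 ng·mL-1 for 24 h. Each array held RNA of a whole culture, so fewer expressing cells and less RNA per cell cannot be told apart. The edited cells were 1 clone, and an effect of the edit cannot be told apart from other traits of that clone. According to the methods the replicates came from separate weekly cultures, but neither labels nor files tie an array to a week, and arrays are numbered here by their slide and row. Wild-type stimulated samples carry a different cell abbreviation in their titles and were assigned from description and genotype.

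WNT proteins are secreted ligands that bind Frizzled receptors together with LRP5 or LRP6. In the canonical branch this stops the destruction of β-catenin, which then enters the nucleus and activates target genes with LEF1 and the TCF factors; in non-canonical branches, for which WNT5A is best known, β-catenin is not required. The pathway limits itself at several levels, since AXIN2, NKD1, DKK1, LEF1 and APCDD1 are themselves known targets in many tissues. In the airway, WNT7B and WNT5A are known from lung development, the former made by the epithelium and the latter mainly by the mesenchyme of the distal tips.

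Values are levels, that is, the log2 of a probe's intensity minus the 75th percentile of its array, and SD refers to the 4 arrays of a condition. Between 51% and 61.8% of the spots of an array were well above background, and the 75th percentile lay between 139.5 and 262.8 intensity units. The lowest level of a probe called well above background was -4.39 (median over the arrays, range -4.93 to -3.76). The epithelial markers EPCAM, CDH1, KRT8, KRT18, KRT19, TP63 and KRT5, 7 of 7, were well above background on every array, with summed linear levels of 1530 to 2050 times the 75th percentile; among them KRT5 had mean levels of 2.64 and 2.01 in 16HBE-WT without and with HGF, and 0.06 and -2.25 in 16HBE-ex14. Of 6 fibroblast markers, COL1A1 and PDGFRB were above background on all 16 arrays by the probe of highest signal, and COL1A2, COL3A1, DCN and THY1 on none. By the same rule, the leukocyte markers PTPRC and CD3E and 2 of the 3 endothelial markers were above background on all arrays, with sums of 0.269-0.729 and 0.26-0.564, and PECAM1 was on none. Probes of the same gene disagreed: others of PTPRC and PDGFRB were above background on 0 arrays, and those of VWF on 1 and 0. For the leukocyte marker CD68 there was no probe. The 1 MET probe had mean levels of 4.98, 5.01, 5.11 and 5.18 in 16HBE-WT without and with HGF and in 16HBE-ex14 without and with HGF, the order used throughout, and does not check the skipping of exon 14.

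The probes are 60 bases long, and the first 30 bases, 5′ to 3′, are shown for the 3 genes whose probes carry the differences described here, because the probes of APCDD1 and of WNT7B did not behave alike. Their positions refer to hg19, as the files give them.
APCDD1, first probe, chr18:10488470-10488529, plus strand: gttttatatgctggaatccaatgcagagtt
APCDD1, second probe, chr18:10479397-10479456, plus strand: gtaatttcttccattctgggaagatggcga
WNT5A, chr3:55499800-55499859, minus strand: gcatcttagaccatttttatatgcagtgta
WNT7B, first probe, chr22:46318943-46319002, minus strand: aagcccatggagacagacctggtgtacatt
WNT7B, second probe, chr22:46316654-46316713, minus strand: atgtctatagtgtctttaaattattgtgac
WNT7B, the third probe, chr22:46372571-46372630, minus strand: acagaaactttcgcaagtggattttctacg

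A gene was called when its probe of highest mean signal had an adjusted p below 0.05 (limma, Benjamini-Hochberg over 34599 probes) and changed more than 1.5-fold. With HGF in 16HBE-WT cells, limma called 0 of the 8 tested members, and the share over all 26368 tested genes was 0%. At an unadjusted p below 0.05 there was 1 member, SFRP1, beside 1681 of all 34599 tested probes. With HGF in 16HBE-ex14 cells 0 of 8 were called, against 1.13% of all genes called higher and 0.967% called lower. An unadjusted p below 0.05 was found for 2 members by the probe of highest signal, SFRP1 and WNT7B, and for 4928 of all 34599 tested probes. Between 16HBE-ex14 and 16HBE-WT, of the 7 tested members other than APCDD1, 1 was called, WNT5A, which was lower; over all genes 4.48% were called higher and 4.77% lower. Between the stimulated genotypes, 2 of these 7 were called, WNT5A lower and WNT7B higher, beside 5.36% of all genes called higher and 5.29% lower. The HGF responses of the genotypes differed for 0 of 8 members and for 0% of all genes. At an unadjusted p below 0.05 were 1 member by the probe of highest signal, WNT7B, and 1586 of all 34599 tested probes. APCDD1 was above background on the 8 16HBE-WT arrays and on none of the others, and WNT5A on the same 8 and on 2 others. Both thus passed the filter through the cells in which they were high, and these counts carry no weight.

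**Figure D1:**
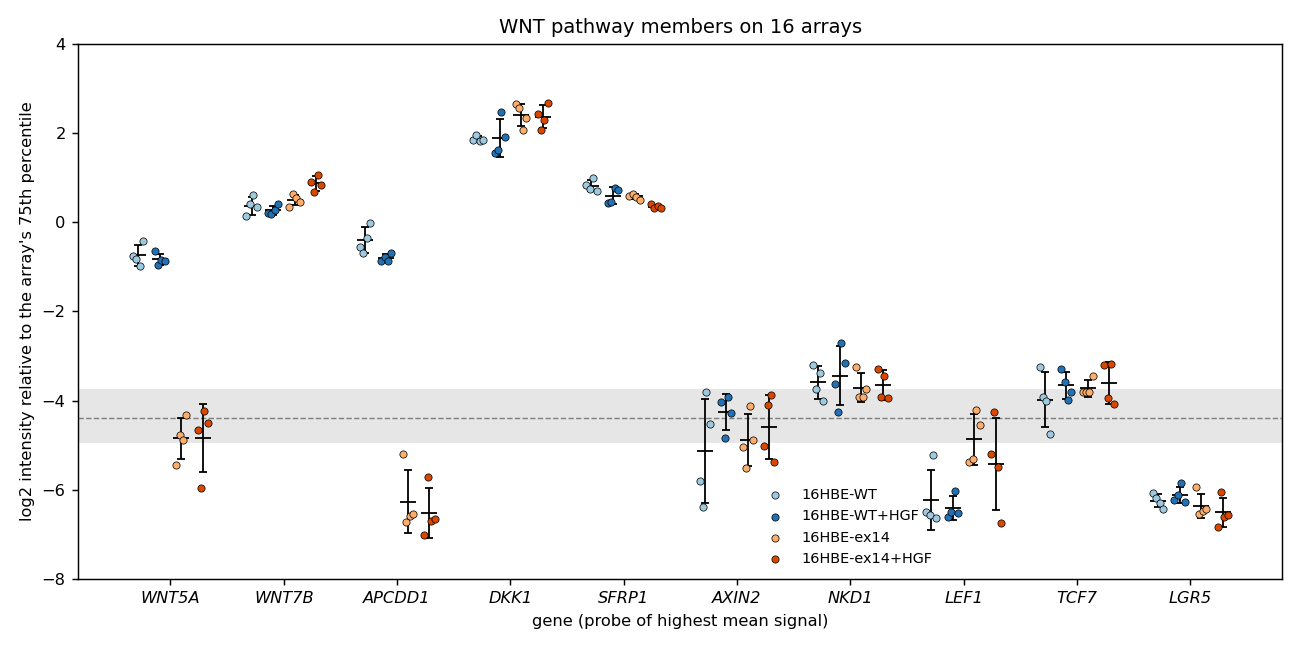
Levels of the 10 genes, by the probe of highest mean signal, on each of the 16 arrays (points), with the mean and SD of the 4 arrays per condition (bars); the y axis is the log2 intensity relative to the 75th percentile of the array. The dashed line at -4.39 and the grey band from -4.93 to -3.76 show the lowest level called well above background on an array. In 16HBE-ex14 cells WNT5A and APCDD1 lay at or below this band, and in 16HBE-WT cells above it.

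WNT5A, the ligand best known for non-canonical signalling, was far lower in 16HBE-ex14 than in 16HBE-WT cells. Its levels were -0.75, -0.82, -0.98 and -0.42 on the 16HBE-WT arrays, and -0.65, -0.95, -0.84 and -0.87 on the 16HBE-WT+HGF arrays. They were -5.44, -4.77, -4.88 and -4.32 on the 16HBE-ex14 arrays, none of them well above background, and -4.66, -5.97, -4.23 and -4.5 on the 16HBE-ex14+HGF arrays, of which 2 were. Every 16HBE-WT array lay above every 16HBE-ex14 array, with or without HGF. Without HGF the 16HBE-ex14 arrays give only a bound. Each was set no lower than the lowest signal of any probe well above background on it. By this rule WNT5A was at least 13.7-fold lower (limma adjusted p = 9.78e-07, for a fitted difference of -4.11 to a signal at background). The limit for this probe may lie higher, since WNT5A at -4.32 was not well above background. With HGF, where 2 of 4 16HBE-ex14 arrays measured it, the fitted difference was -4.01 (95% confidence interval -4.67 to -3.35, adjusted p = 1.06e-06), and it was -4.51 and -3.51 within the first and the second slide. Because the probe passed the filter through the 16HBE-WT arrays, these p-values carry no weight, and the interval includes arrays at background. With normexp background correction, whose offset compresses dim signals, the differences were -1.64 without and -1.52 with HGF. HGF itself changed the WNT5A level by -0.09 (-0.75 to 0.58, adjusted p = 1) in 16HBE-WT cells. In 16HBE-ex14 cells the fitted change was 0.01 (-0.65 to 0.68, adjusted p = 0.993). There 0 of 4 arrays without and 2 of 4 with HGF were well above background, so that a change could not be measured. WNT5A is also made by fibroblasts, and the summed linear level of the 6 fibroblast markers was 0.445 to 0.929 in 16HBE-WT, 0.535 to 0.73 in 16HBE-WT+HGF, 0.339 to 0.505 in 16HBE-ex14 and 0.416 to 0.455 in 16HBE-ex14+HGF; its part in the difference was not tested.

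WNT7B, a canonical ligand of airway epithelium, was read by 3 probes that differed between the genotypes in opposite directions. On the first probe the levels were 0.14, 0.4, 0.61 and 0.34 in 16HBE-WT, 0.2, 0.18, 0.27 and 0.41 in 16HBE-WT+HGF, 0.35, 0.63, 0.54 and 0.46 in 16HBE-ex14, and 0.91, 0.68, 1.05 and 0.84 in 16HBE-ex14+HGF. The 4 16HBE-ex14+HGF arrays were thus the highest of the 16 on this probe. The stimulated genotypes differed by 0.6 (0.36 to 0.85, adjusted p = 0.00167), a 1.52-fold change that lies just past the limit, and it was 0.6 and 0.61 within the slides. It fell under the limit without 16HBE-WT+HGF replicate 1 (0.58) or replicate 2 (0.57), without 16HBE-ex14+HGF replicate 3 (0.54) and with another background correction (0.53), each with an adjusted p below 0.05. HGF changed the first probe by 0.37 (0.13 to 0.62, adjusted p = 0.11) in 16HBE-ex14 and by -0.11 (-0.35 to 0.14, adjusted p = 1) in 16HBE-WT cells. The difference of the HGF responses, 0.48 (0.14 to 0.82), had an adjusted p of 0.857.

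The second WNT7B probe was lower in 16HBE-ex14 cells. Its levels were -2.25, -2.14, -1.8 and -2.06 in 16HBE-WT and -3.45, -2.52, -3.2 and -3.17 in 16HBE-ex14, and with HGF -2.19, -2.23, -2.52 and -1.98 in 16HBE-WT and -3.37, -3.54, -3.24 and -3.34 in 16HBE-ex14. The arrays of the genotypes did not overlap in either case. The differences were -1.02 (-1.4 to -0.65, adjusted p = 0.000993) without HGF and -1.14 (-1.52 to -0.77, adjusted p = 0.000368) with HGF. With normexp background correction they were -0.49 and -0.56, under the fold limit, so that both calls were lost. The third probe differed by -1.34 (-2.07 to -0.61, adjusted p = 0.013) and -1.08 (-1.81 to -0.35, adjusted p = 0.0371), and only 3 of its 8 16HBE-ex14 arrays were well above background. It passed the filter through the 16HBE-WT arrays, 7 of 8, so these p-values carry no weight, and the intervals include arrays at background. In the stimulated cells the arrays of the third probe overlapped, and its call was lost under 5 of 14 alternative settings and without 6 of the 16 arrays in turn. The annotation of the first probe lists, beside the WNT7B transcript, a transcript that RefSeq gives to WNT7A, which encodes a closely related ligand; the other probes list no WNT7A transcript. The probe named for WNT7A itself had mean levels of -0.08, -0.12, 0.05 and 0.37 in that order of conditions, and a difference of 0.5 (adjusted p = 0.0446) between the stimulated genotypes, which is under the fold change limit. Which transcripts the first WNT7B probe read was not tested.

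**Figure D2:**
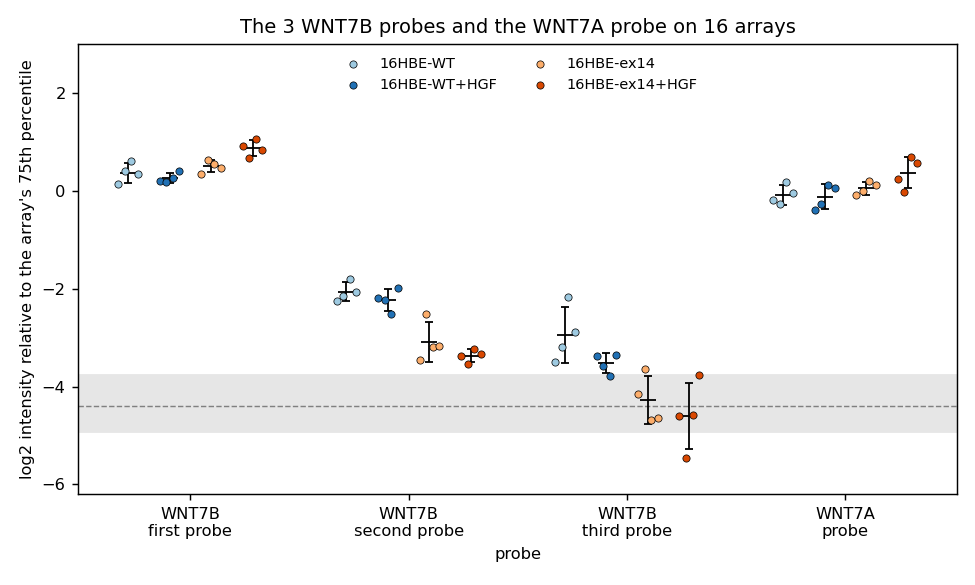
Levels of the 3 probes named for WNT7B and of the probe named for WNT7A on each of the 16 arrays (points), with mean and SD per condition (bars), on the log2 scale relative to the 75th percentile of the array. The first WNT7B probe was highest in 16HBE-ex14+HGF cells, the other probes named for it were lower in 16HBE-ex14 than in 16HBE-WT cells, and the grey band and dashed line mark the lowest level called well above background.

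APCDD1 encodes a membrane-bound inhibitor that binds WNT proteins and LRP5 at the cell surface. On the first probe its levels were -0.55, -0.68, -0.35 and -0.01 on the 16HBE-WT arrays and -0.86, -0.77, -0.87 and -0.68 on the 16HBE-WT+HGF arrays, all 8 well above background. They were -5.21, -6.72, -6.59 and -6.55 on the 16HBE-ex14 arrays and -7.01, -5.72, -6.71 and -6.66 on the 16HBE-ex14+HGF arrays, none of them well above background. The measured means differed by -5.87 without and -5.73 with HGF. By the rule used for the WNT5A bound, APCDD1 was at least 17.7-fold and at least 14.6-fold lower. With normexp background correction the differences were -1.96 and -1.61. These differences are those on which the gene was picked and were not tested. The second probe, which the annotation assigns to another transcript model, was above background on 0 of 16 arrays and says nothing about the difference. HGF changed the first probe by -0.4 (-1.07 to 0.27, adjusted p = 1) in 16HBE-WT cells, which was not called. The 16HBE-WT arrays with and without HGF did not overlap, but the share of all probes without overlap was not counted. In 16HBE-ex14 cells both conditions were below background, so that no change could be measured.

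Neither of the other secreted inhibitors was called in any comparison. DKK1, which blocks LRP5 and LRP6, had levels of 1.84, 1.96, 1.83 and 1.85 in 16HBE-WT and 2.65, 2.56, 2.08 and 2.34 in 16HBE-ex14, and with HGF 1.55, 1.62, 2.47 and 1.92 in 16HBE-WT and 2.44, 2.06, 2.3 and 2.67 in 16HBE-ex14. The arrays did not overlap without HGF and overlapped with HGF. The differences of 0.54 (0.13 to 0.94, adjusted p = 0.0645) and 0.48 (0.07 to 0.88, adjusted p = 0.0944) did not pass. The former was called when arrays were scaled to their median (0.67, adjusted p = 0.0287) or to spike-in RNA (0.65, adjusted p = 0.0271) and without 16HBE-ex14 replicate 3 (0.64, adjusted p = 0.0425), and the latter with array weights (0.6, adjusted p = 0.0216) and without 16HBE-WT+HGF replicate 3 (0.67, adjusted p = 0.0101). SFRP1, a secreted protein that binds WNT ligands, was measured by 10 spots of 1 probe. Its levels were 0.84, 0.74, 0.99 and 0.71 in 16HBE-WT, 0.43, 0.46, 0.77 and 0.73 in 16HBE-WT+HGF, 0.6, 0.63, 0.56 and 0.5 in 16HBE-ex14, and 0.4, 0.32, 0.36 and 0.33 in 16HBE-ex14+HGF. All 4 of its comparisons had an interval below 0 and none passed. The 16HBE-ex14 arrays lay below the 16HBE-WT arrays by -0.24 (-0.45 to -0.04, adjusted p = 0.0953) and, with HGF, by -0.25 (-0.45 to -0.04, adjusted p = 0.0871). HGF moved it by -0.22 (-0.43 to -0.02) in each genotype, with adjusted p = 0.993 in 16HBE-WT and 0.293 in 16HBE-ex14.

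**Figure D3:**
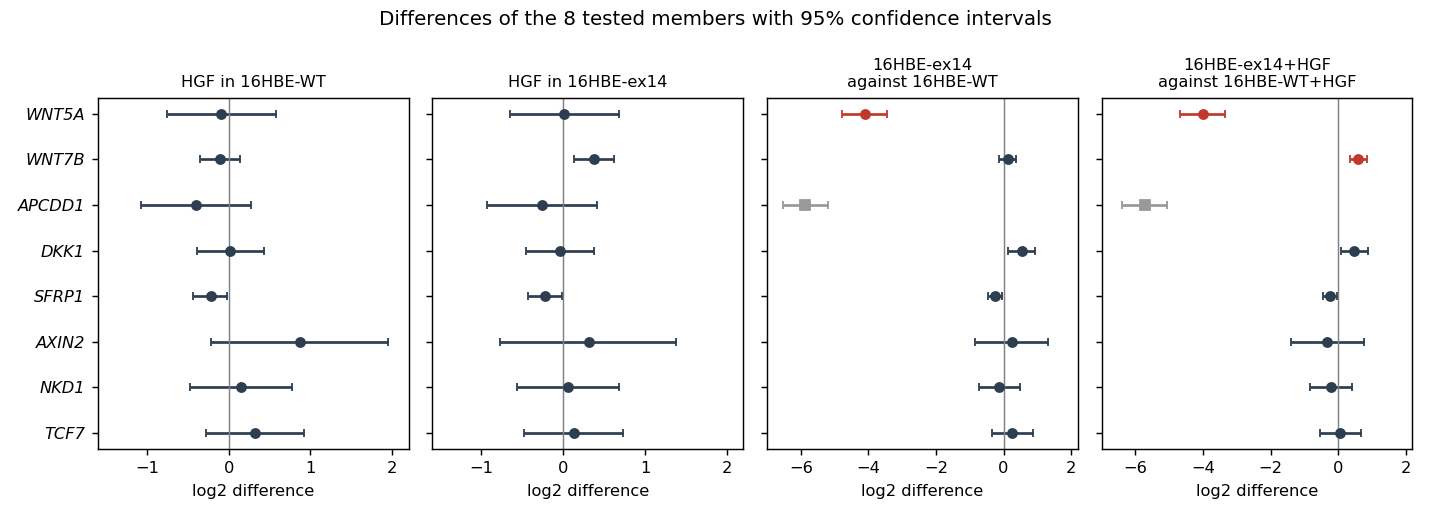
Log2 differences of the 8 tested genes, by the probe of highest mean signal, in the 4 comparisons, with 95% confidence intervals from limma; the x axes of the HGF panels and of the genotype panels have different ranges. Red marks a call, and grey squares mark the APCDD1 differences on which the gene was picked, which were not tested; WNT5A had fitted values of -4.11 and -4.01 between the genotypes, the former against arrays at background.

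AXIN2, a scaffold of the β-catenin destruction complex, and NKD1, which binds Dishevelled and limits its signal, were near the background. The first AXIN2 probe was well above background on 5 of 16 arrays, with levels from -6.38 to -3.81 in 16HBE-WT, -4.84 to -3.91 in 16HBE-WT+HGF, -5.52 to -4.13 in 16HBE-ex14 and -5.37 to -3.87 in 16HBE-ex14+HGF. The ranges overlapped in every comparison, and the intervals were wide, the widest side reaching 1.95 for HGF in 16HBE-WT cells (difference 0.87, adjusted p = 1). The second AXIN2 probe was above background on 0 of 16 arrays and was not tested. The first NKD1 probe was above background on 15 arrays, with mean levels of -3.59 ± 0.37, -3.44 ± 0.66, -3.71 ± 0.32 and -3.65 ± 0.33 (SD, n = 4) in that order of conditions. Its genotype differences were -0.12 (-0.74 to 0.5) and -0.21 (-0.84 to 0.41), so that a change past the fold limit was not excluded by the intervals. The second NKD1 probe, above background on 5 arrays, was above background on 0 of 4 16HBE-ex14 and 3 of 4 16HBE-ex14+HGF arrays. By the rule used for the WNT5A bound, its level was at least 1.23-fold higher with HGF (adjusted p = 0.25, not called). Its other fitted differences were -0.65 for HGF in 16HBE-WT, and -1.01 without and 0.74 with HGF between the genotypes. The difference of its HGF responses was fitted at 1.75 (0.43 to 3.08, limma adjusted p = 0.929). None was called, and each involved a condition with 0 of 4 arrays above background.

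LEF1 and TCF7 are transcription factors that carry β-catenin to target genes. The LEF1 probe was well above background on 2 of 16 arrays, both of 16HBE-ex14 cells (1 without and 1 with HGF), and was not tested. Its levels ran from -6.63 to -5.23 in 16HBE-WT, -6.62 to -6.02 in 16HBE-WT+HGF, -5.38 to -4.22 in 16HBE-ex14 and -6.75 to -4.26 in 16HBE-ex14+HGF. The first TCF7 probe was above background on 13 arrays, with means of -3.98 ± 0.62, -3.66 ± 0.3, -3.73 ± 0.18 and -3.6 ± 0.47 (SD, n = 4), and its 4 differences lay between 0.06 and 0.32 with overlapping arrays. The second TCF7 probe was above background on 3 arrays and was not tested. LGR5, a receptor for R-spondins and a stem cell marker in several epithelia, was above background on 0 of 16 arrays, with levels from -6.83 to -5.85.

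Promoters of 5 of the 10 genes were found in RefSeq (GRCh38.p14), as windows of 250 bases before and 50 bases after a start. Those of APCDD1 and WNT5A, the members far lower in 16HBE-ex14 cells, and that of DKK1 are shown for the 250 bases before the start, 5′ to 3′ on the strand of the gene. Capitals mark CTTTGA, a form of the core that TCF and LEF factors recognise, on either strand, and other forms are not marked.
APCDD1, chr18:10454385-10454634, plus strand: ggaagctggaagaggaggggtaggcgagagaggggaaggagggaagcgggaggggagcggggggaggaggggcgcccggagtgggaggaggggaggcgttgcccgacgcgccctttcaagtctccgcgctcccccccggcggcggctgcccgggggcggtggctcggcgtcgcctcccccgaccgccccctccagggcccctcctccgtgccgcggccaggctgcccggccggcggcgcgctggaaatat
WNT5A, upstream start, chr3:55487307-55487556, minus strand: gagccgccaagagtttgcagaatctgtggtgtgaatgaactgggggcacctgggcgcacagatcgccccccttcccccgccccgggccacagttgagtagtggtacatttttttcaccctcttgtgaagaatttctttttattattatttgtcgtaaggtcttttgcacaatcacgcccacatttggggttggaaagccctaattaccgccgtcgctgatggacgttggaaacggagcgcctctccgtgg
WNT5A, downstream start, chr3:55481399-55481648, minus strand: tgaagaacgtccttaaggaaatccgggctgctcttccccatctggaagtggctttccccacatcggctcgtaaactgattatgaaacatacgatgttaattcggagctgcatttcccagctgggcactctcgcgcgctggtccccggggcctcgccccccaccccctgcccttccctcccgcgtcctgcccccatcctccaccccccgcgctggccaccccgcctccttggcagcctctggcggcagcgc
DKK1, chr10:52314031-52314280, plus strand: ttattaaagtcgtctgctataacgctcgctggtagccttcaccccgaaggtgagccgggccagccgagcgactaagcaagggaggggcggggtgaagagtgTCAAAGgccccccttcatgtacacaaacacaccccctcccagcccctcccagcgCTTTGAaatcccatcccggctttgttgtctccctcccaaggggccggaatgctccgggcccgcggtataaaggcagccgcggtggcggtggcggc
The letters CTTTGA occurred in 12.9% of the 35116 promoter windows of 300 bases in that table, on either strand; no other motif was searched. The DKK1 window held them once on each strand, starting 95 bases before the start on the strand of the gene and 149 bases before it on the opposite strand. The windows of APCDD1, WNT5A, LEF1 and TCF7 did not hold them, which says only that these letters are not there. The APCDD1 window had a G and C share of 76% and 33 CG pairs, and the WNT5A windows 63.7% with 22 and 56.3% with 21 pairs, beside medians of 58.7% and 14 over all windows.

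The other genes of the pathway, a list of 91 grouped by role, of which 70 were tested, are described by their counts. With HGF in 16HBE-WT cells limma called 0 of 70 (3 at an unadjusted p below 0.05), and for the difference of the HGF responses 0 of 70 (4 at an unadjusted p below 0.05). Of all 34599 tested probes, 1681 and 1586 had an unadjusted p below 0.05 in these comparisons, and 0% of all genes were called. With HGF in 16HBE-ex14 cells 6 of 70 were called, all lower (8.57%, beside 1.13% of all genes called higher and 0.967% called lower; median of the list 0.04, median of all genes 0.06). They were WNT4 (-1.55, adjusted p = 0.0297), the transcription factor TCF7L1 (-0.9, 0.0171), WNT10A (-0.85, 0.0224), the DKK1 co-receptor KREMEN2 (-0.79, 0.041), the pseudoreceptor BAMBI (-0.63, 0.0174) and the co-repressor TLE4 (-0.61, 0.00602). WNT4 levels were -2.57, -1.34, -2.49 and -1.51 in 16HBE-ex14 and -2.97, -2.88, -4.09 and -4.15 in 16HBE-ex14+HGF, without overlap. Of the latter arrays 3 of 4 were well above background, and -4.09 and -4.15 lay within the background range of -4.93 to -3.76. Arrays also did not overlap for TCF7L1, BAMBI and TLE4, but they overlapped for WNT10A and KREMEN2. WNT4 differed by -0.47 (adjusted p = 0.525) on another probe. This count of 6 became 1 and 0 when 16HBE-ex14 replicates 2 and 4 were left out in turn, 2, 1 and 3 without 16HBE-ex14+HGF replicates 2, 3 and 4, and 0 when the fit held the 16HBE-ex14 arrays alone. The share of all genes called in these fits was not counted, so the list cannot be told apart from all genes there.

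Between 16HBE-ex14 and 16HBE-WT cells the medians were 0.01 over the list and -0.02 over all genes. Of the 70, 12 were called, 8 higher and 4 lower (17.1%, beside 2441 of all 26368 genes called, 4.48% higher and 4.77% lower). The largest were the ligand WNT6 (1.74, adjusted p = 4.59e-05), RNF43, a ubiquitin ligase that removes Frizzled receptors (-1.43, 5.71e-05), the receptor FZD1 (1.42, 4.06e-05), the Dishevelled binder NKD2 (1.04, 0.00116), KREMEN1 (-0.82, 0.00158) and BAMBI (-0.81, 0.000575). RNF43, like AXIN2 a known target, had levels of 0.15, 0.1, 0.28 and 0.35 in 16HBE-WT and -1.38, -1.26, -1.41 and -0.78 in 16HBE-ex14. WNT6 went the other way, from -2.96, -3.19, -2.58 and -3.03 in 16HBE-WT to -1.09, -0.83, -1.81 and -1.07 in 16HBE-ex14. In neither did the genotypes overlap. WNT4, not called without HGF on the probe of highest signal, differed by -1.51 (adjusted p = 0.0024) on its other probe. KREMEN1 differed by -0.42 (adjusted p = 0.484) and -0.01 (adjusted p = 0.991) on other probes.

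Between the stimulated genotypes the medians were 0.14 over the list and 0.01 over all genes. Of the 70, 17 were called, 8 higher and 9 lower (24.3%, beside 2807 of all 26368 genes called, 5.36% higher and 5.29% lower). The largest were RNF43 (-1.5, adjusted p = 3.13e-05), WNT4 (-1.41, 0.0109), NKD2 (1.31, 0.000165), FZD1 (1.31, 6.32e-05) and WNT6 (1.29, 0.000422). The receptor gene FZD8 was among them by its fitted value (adjusted p = 0.0466), but no 16HBE-WT+HGF array was well above background, and it was at least 1.15-fold higher in 16HBE-ex14+HGF cells, a bound under the fold limit; without it 16 were called, 7 higher and 9 lower. By role, without HGF, 1 of 12 ligands, 2 of 14 receptors, 1 of 5 R-spondin arm genes, 2 of 5 extracellular inhibitors, 3 of 15 cytoplasmic components, 1 of 9 nuclear components and 2 of 8 further target genes were called, and with HGF 4, 5, 1, 1, 4, 1 and 1. Over all 26368 genes 2441 were called without and 2807 with HGF. The groups are small, so these counts are no result about a role. The cytoplasmic components called were higher in 16HBE-ex14 cells on the probe of highest signal, and the further target genes lower. Other probes of CTNNBIP1 (-0.11 without and 0.22 with HGF) and DVL1 (-0.04 and 0.04), which are among these components, were not called. Of the 2 genes for WNT secretion, PORCN and WLS, neither was called in any comparison.

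**Figure D4:**
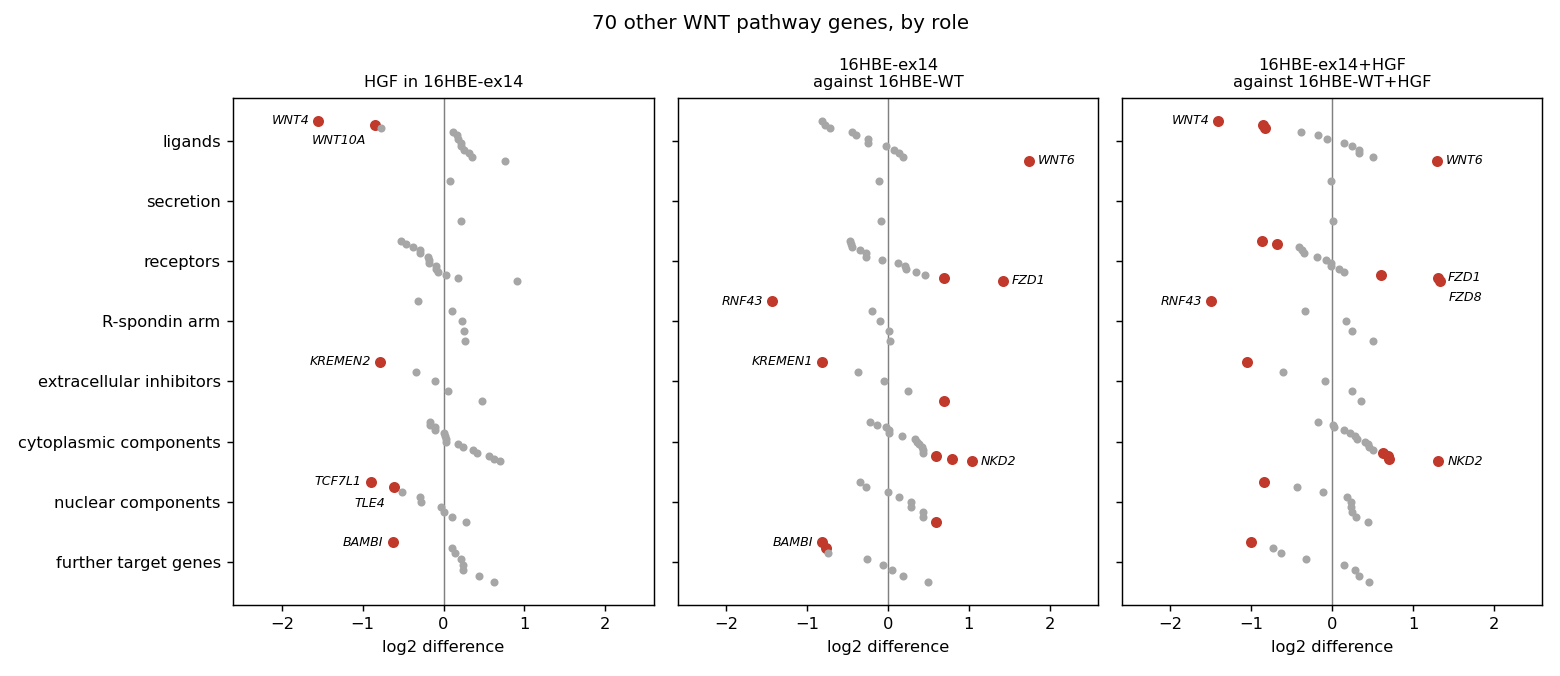
Log2 differences of 70 other WNT pathway genes (points, 1 probe per gene), by role, in 3 comparisons; red marks a call, and up to 6 called genes with the largest change are named in each panel. HGF in 16HBE-ex14 cells gave 6 calls, all to the left of 0, and the genotypes gave 12 calls without and 17 with HGF on both sides of 0.

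The genes whose levels followed the first APCDD1 probe most closely over the 16 arrays were LRIG1 (Pearson's r = 0.987), GNB4 (0.987), IL1RN (0.986), CEMIP (0.986) and MMD (0.985). The arrays fall into the 2 genotypes, so that any gene with a large difference of the same sign has a high r. CEMIP went from means of -2.23 and -2.54 in 16HBE-WT to -6.38 and -6.49 in 16HBE-ex14 cells and, like APCDD1, was above background on none of the 8 16HBE-ex14 arrays. MMD, in contrast, moved from 2.68 and 2.6 to 1.85 and 1.68. By the deviations from the condition means, the nearest were NCF4 (0.846), GNG3 (0.838), LOC100287837 (0.819), TDRD3 (0.812) and lnc-TTLL2-1 (0.792), none of them in the first set. The r between APCDD1 and WNT5A was 0.95 by levels and -0.68 by deviations; for both genes the deviations on 16HBE-ex14 arrays are those of a signal at background.

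The neighbours of APCDD1 and WNT5A on their chromosomes, looked at after the members' values were seen, did not share the size of their differences. Of 13 tested genes within 1 Mb of the APCDD1 probe, 2 were called lower in 16HBE-ex14 than in 16HBE-WT cells, beside 4.77% of all genes. They were RAB31 (-0.93, adjusted p = 0.00103) and TXNDC2 (-0.75, 0.00144). With HGF 1 was called lower, RAB31 (-0.68, 0.00794), beside 5.29% of all genes. The median differences of the 13 genes were -0.32 without and -0.43 with HGF, beside -0.02 and 0.01 over all genes. Their differences lay between -0.93 and 0.05 without and between -1.22 and 0.32 with HGF, and the cause was not tested. The nearest named gene, NAPG, 52 kb away, differed by -0.51 (adjusted p = 0.00243) and -0.43 (0.00662), under the fold limit. Of 4 tested genes within 1 Mb of the WNT5A probe none was called by limma, and their differences lay between -0.21 and 0.19 without and between -0.53 and 0.4 with HGF.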

How the data were processed

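RNA of 16 cultures of 16HBE cells was hybridised to 1-colour Agilent arrays, 4 per condition. Per the file headers and the submitters' processing notes, the authors extracted spot intensity with Agilent Feature Extraction 10.7.3.1, and the deposited value table holds the same intensities, 62976 per array, without further scaling; the study's own normalization between arrays and filter are not given in the sources used here. Positions are those of the files (hg19). The log2 of the processed signal minus the 75th percentile of each array was used here, without control spots (60901 spots left) and outlier spots, with spots of 1 probe averaged. A probe was tested if it exceeded background clearly on 4 or more of the 16 arrays, which left 34599 of 58201. The 4 conditions were fitted together with limma 3.58.1 (R 4.3.3, data.table version 1.17.8, jsonlite 2.0.0), without a batch term, and p-values were adjusted by Benjamini-Hochberg over all tested probes. No column of unmapped samples was left out. The members, the lists of pathway and marker genes and the tests were chosen with earlier results of these data known, and APCDD1 was chosen on its difference between genotypes, which therefore has no test. All members are named in the text, together with up to 6 called pathway genes of largest change per comparison and the 5 genes most like APCDD1 by each measure; other genes are named as checks of these. Per gene, the probe of highest mean signal represents it, and the other probes of members are given beside it. The share of all probes whose arrays did not overlap was not counted, so lack of overlap is a description only. A difference against a group with no array well above background is given as a bound. This is the bright mean over the dim arrays, each set no lower than the lowest signal of any probe well above background on it. The limit for a given probe may lie higher, so the words at least hold only by this rule. Background correction, scaling, filter, outlier spots, slide and row blocks, variance prior, array weights, the arrays in the fit, the fold limit, the probe rule and leaving out each array were varied. Simulated data with known changes were used to test the fit. Array numbers limit the precision. According to the methods the replicates were separate weekly cultures, but the labels do not number them, so arrays could not be paired by week. The edited cells were 1 clone, so the p-values cover no spread between clones. Sequences were read from the probe column of the files and from RefSeq promoters, and figures were drawn with Python 3.11.15, pandas 2.3.3, numpy 2.4.6 and matplotlib 3.10.9.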

Additional observations from a re-analysis of the deposited data

Results flagged for a closer look

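Among 40 groups of 4 arrays, 4 held an array far from the other 3 by Dixon's criterion, which chance gives in about 1 of 20 groups. APCDD1 was -5.21 on 16HBE-ex14 replicate 1, above the other 3 arrays of that condition, and LGR5 was -5.95 on the same array; neither was well above background there. LEF1 was -5.23 on 16HBE-WT replicate 3, also not well above background. TCF7 was -3.46 on 16HBE-ex14 replicate 4, where the other arrays were at -3.82, -3.81 and -3.82.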

How the results depend on the processing

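With the array row as replicate block WNT5A differed by -4.11 and -4.01, as without it, and the only call of a member probe lost was that of the third WNT7B probe with HGF (adjusted p = 0.0558). Arrays of 1 row correlated in their deviations with r from 0.03 to 0.32, those of the other row of the slide from 0.04 to 0.41, and those of the other slide from -0.36 to 0.03. Arrays thus deviated together by slide, and 4 of 16 were nearest to one of their own row; the slide as a block changed no call of a member. Normexp background correction, which compresses dim signals by its offset, gave APCDD1 differences of -1.96 and -1.61, and WNT5A differences of -1.64 and -1.52. Of the other pathway genes, 10 were called between the stimulated genotypes with normexp, 22 between the unstimulated ones with no fold limit, and for HGF in 16HBE-ex14 cells 0 with only the compared arrays and 0 to 7 with arrays left out. The share of all genes called was not counted under these settings, so these counts are no result about the list. Scaling to the array median moved the median of all probes to 0.12 between the unstimulated genotypes (main -0.02), and to -0.08 and -0.11 for HGF in 16HBE-WT and 16HBE-ex14 (0.03 and 0.06). Uncalled differences changed sign, and the causes were not tested. With normexp they were -0.01 for DKK1 with HGF in 16HBE-WT; 0.1 for APCDD1 and 0.01 for the third WNT7B probe with HGF in 16HBE-ex14; -0.24 for AXIN2 and -0.18 for TCF7 between the unstimulated genotypes; and -0.2 for TCF7 between the stimulated ones. With HGF in 16HBE-ex14, quantile normalization gave -0.11 for NKD1, -0.04 for TCF7 and -0.2 for WNT5A, median scaling -0.11, -0.03 and -0.15, and spike-in scaling -0.03 for NKD1 and -0.08 for WNT5A. NKD1 between the unstimulated genotypes was 0.02 with quantile normalization and with median scaling. With HGF in 16HBE-WT, DKK1 was -0.1 with median and -0.01 with spike-in scaling; with array weights DKK1 was -0.09, NKD1 -0.08 and TCF7 between the stimulated genotypes -0.03. Leaving out arrays gave ranges across 0. With HGF in 16HBE-WT these were -0.17 to 0.13 for DKK1, -0.09 to 0.42 for NKD1 and -0.16 to 0.02 for WNT5A. With HGF in 16HBE-ex14 they were -0.53 to 0.09 for APCDD1, -0.15 to 0.06 for DKK1, -0.06 to 0.21 for NKD1, -0.01 to 0.28 for TCF7 and -0.19 to 0.39 for WNT5A. Between the unstimulated genotypes they were -0.18 to 0.68 for AXIN2, -0.27 to 0.01 for NKD1 and 0 to 0.5 for TCF7, and between the stimulated ones -0.48 to 0.03 for NKD1 and -0.07 to 0.22 for TCF7. AXIN2, LEF1 and LGR5 lay too near the background for small differences to be seen, as did APCDD1 and WNT5A in 16HBE-ex14 cells.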
